A study of Mus musculus with 2 samples.

Results

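B cells of the mouse lung were read in 2 single-cell RNA libraries, one from mice given control media (CM) and one from mice given tumor conditioned media (TCM). The B cells were selected by a rule on measured counts of unique molecular identifiers (UMIs, one per captured RNA molecule). A droplet passed as a cell when it held 500 or more UMIs from 200 or more genes, of which no more than 10% were mitochondrial. It was called a B cell when Cd79a, Cd79b and Ms4a1 together gave at least 3 UMIs from at least 2 of the genes, and when Cd3e, Cdh5, Epcam, Col1a2 and Csf3r were all at 0. The last genes mark T cells, endothelium, epithelium, fibroblasts and neutrophils. By this rule 922 of 15695 cells were B cells, 621 of 7988 in CM and 301 of 7707 in TCM.

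B cells are lymphocytes that carry an immunoglobulin of their own as the B cell receptor. Each receptor pairs a heavy chain with a kappa or a lambda light chain, and each chain joins a variable (V) segment, chosen out of many in the genome, to a constant region. Naive cells carry IgM and IgD, and after activation some cells switch class, for instance to the IgA of mucosal surfaces, and turn into plasma cells that secrete antibody. Cd79a and Cd79b are the signalling chains of the receptor, and Ms4a1 encodes the surface protein CD20.

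Both libraries came from whole lung of female BALB/c mice, aged 9 to 10 weeks, with media injected intravenously over 3 weeks. TCM was medium in which pieces of 4T1 tumors, a mammary carcinoma line of BALB/c origin, had been kept, and CM was that medium kept likewise without tumor. The number of mice behind a library was not given in the sources used here. Each group held 1 library. Differences between the groups thus could not be set against the spread between mice, no test was made, and all intervals are 95% intervals that cover counting error only.

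The median CM B cell held 1947 UMIs from 937 genes, and the median TCM B cell 1878 UMIs from 898 genes, so that depth was close. Summed over all B cells, 1331889 UMIs were read for CM and 680442 for TCM. The cells of the libraries shared 93 droplet barcodes, and no shared barcode was a B cell in both. Free RNA, taken up by droplets from the surrounding fluid, was estimated at 147 UMIs per CM B cell (6.84% of its UMIs) and 303 per TCM B cell (13.4%). It accounted for 0.0503 and 0.0548 UMIs of the 3 selecting genes per cell. The estimate is rough, since it exceeded the UMIs read for 3 of 2857 genes in CM and 38 in TCM. Among the genes that set its amount, the haemoglobin gene Hbb-bs had 291 of 303 CM UMIs and all 263 TCM UMIs in 1 cell each. Such counts raised the amount, although Hbb-bs gave 303 of the 5131 UMIs of these genes in CM and 263 of 3426 in TCM. The largest differences of the comparison lay in V segments carried by a few antibody-rich cells, which are therefore shown first.

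A few V segments are printed because they held the largest heavy and light chain counts of the most antibody-rich TCM cell, or because a near-identical partner was read in the same cell. The sequences are those of the reference strain C57BL/6 (GENCODE vM21 on GRCm38), whereas the mice were BALB/c, so that a segment name stands for the closest reference segment. All lie on the minus strand, and the first 200 bases of the second exon, which is coding, are given 5′ to 3′. Capitals mark bases that differ between the partners of a pair. Ighv2-6 spans chr12:113716774-113716973 in this stretch, Ighv2-6-8 chr12:113796242-113796441, Ighv8-11 chr12:115567261-115567460, Ighv8-8 chr12:115294174-115294373 and Igkv1-88 chr6:68862378-68862577.
Ighv2-6: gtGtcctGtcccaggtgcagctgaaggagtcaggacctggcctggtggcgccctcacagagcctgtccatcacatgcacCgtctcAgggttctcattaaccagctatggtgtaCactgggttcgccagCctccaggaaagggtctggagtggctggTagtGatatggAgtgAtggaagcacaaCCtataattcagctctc
Ighv2-6-8: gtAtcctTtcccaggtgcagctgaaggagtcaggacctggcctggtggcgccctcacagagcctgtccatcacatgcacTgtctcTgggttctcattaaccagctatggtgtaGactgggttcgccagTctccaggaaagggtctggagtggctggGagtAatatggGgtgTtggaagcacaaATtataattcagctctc
Ighv8-11: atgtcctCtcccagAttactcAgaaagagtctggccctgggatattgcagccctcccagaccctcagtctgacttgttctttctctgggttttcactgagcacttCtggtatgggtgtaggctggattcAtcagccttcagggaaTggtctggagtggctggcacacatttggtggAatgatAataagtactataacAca
Ighv8-8: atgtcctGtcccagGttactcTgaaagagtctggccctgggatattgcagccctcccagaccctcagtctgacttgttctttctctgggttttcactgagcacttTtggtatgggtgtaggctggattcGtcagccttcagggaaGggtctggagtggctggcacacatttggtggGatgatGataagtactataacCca
Igkv1-88: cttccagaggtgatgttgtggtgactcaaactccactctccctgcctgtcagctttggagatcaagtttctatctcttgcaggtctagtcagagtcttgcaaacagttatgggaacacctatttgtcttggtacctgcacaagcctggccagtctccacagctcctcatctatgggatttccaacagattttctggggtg

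Over the whole second exon, Ighv2-6 and Ighv2-6-8 differed at 15 of 304 bases (95.1% identity), and Ighv8-11 and Ighv8-8 at 12 of 312 (96.2%). One TCM cell held 1119 Ighv2-6 and 162 Ighv2-6-8 UMIs, and another held 49 Ighv8-11 and 48 Ighv8-8 UMIs. Counts of such partners in 1 cell cannot be told apart from reads of 1 BALB/c segment split between them. Igkv1-88 was read in 5 CM cells with 89 UMIs in all, and in 1 TCM cell with 5544 UMIs.

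The genes that chose the cells are given as a description. Among CM B cells 99.7% held a Cd79a UMI, 91.1% a Cd79b UMI and 76.3% an Ms4a1 UMI, and among TCM B cells 99.0%, 90.4% and 74.8%. The median cell held 13 UMIs of the 3 genes in CM and 14 in TCM. At the threshold, 25 CM and 11 TCM cells were kept with exactly 3 of these UMIs. Just outside it, 24 CM and 15 TCM cells had 2 UMIs from 2 of the genes, and 32 and 20 had 3 or more UMIs from 1 gene. The exclusion genes removed 145 of 766 CM and 81 of 382 TCM cells that met the positive part of the rule, most often Cdh5 alone (59 and 36 cells), whereas Csf3r alone removed 4 and 9.

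B lineage genes that the rule did not use were read in these cells. Thinned to 1000 UMIs per cell, which kept 507 CM and 231 TCM cells and left out 114 and 70, 73.8% of CM and 68.8% of TCM B cells held a UMI of Ebf1, a transcription factor that specifies the lineage. Pax5, which maintains B cell identity, was found in 16.8% and 13.0%. In endothelial cells thinned likewise the shares were 3.51% and 2.32% for Ebf1 and 0.0763% and 0.0749% for Pax5 (median depth before thinning 2522 UMIs in CM and 3046 in TCM). The label of B cells was thus met by their markers in both libraries, except for most of 12 cells set apart below by a marker of antibody-secreting cells. Of 11 T cell markers, the B cells held 0.205 UMIs per cell in CM and 0.206 in TCM, against 11.5 and 10.6 in T cells, with 0 and 1 of the markers at 0.

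The first question was how many B cells were recovered under each treatment. B cells made up 7.77% of CM cells (interval 7.20 to 8.38%) and 3.91% of TCM cells (3.48 to 4.36%), a log2 ratio of -0.99. The intervals were apart. T cells, selected with Cd3d, Cd3e and Cd3g in the same manner, made up 7.42% and 5.54%, and endothelial cells, selected with Cdh5, Pecam1 and Cldn5, 19.3% and 19.6%. Among cells with a UMI of Ptprc, which encodes the leukocyte antigen CD45, B cells with such a UMI were 15.7% in CM (372 of 2374) and 5.77% in TCM (173 of 2996). A share depends on what else the library holds. With cells rich in the neutrophil genes S100a8, S100a9 and Csf3r left out of the total, the log2 ratio was -0.74, and among cells with at least 1000 UMIs it was -1.20.

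**Figure D1:**
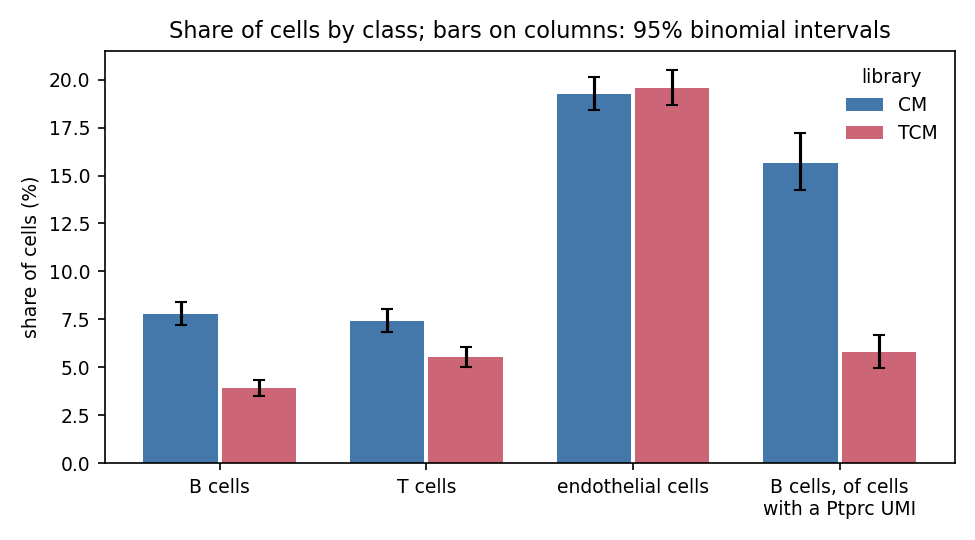
Share of cells (%) in the CM and TCM libraries for B cells, T cells and endothelial cells of all cells, and for B cells among cells with a Ptprc UMI. Columns are shares and the bars on them 95% exact binomial intervals; the B cell columns stand at 7.77% and 3.91%, while the endothelial columns stand at 19.3% and 19.6%.

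Next, RNA levels within B cells were compared. A level is the sum of a gene's UMIs over the B cells of a library per 100000 UMIs of those cells, and the log2 ratio sets TCM over CM. Of 2857 genes with at least 100 UMIs over both libraries, 30 were past 2-fold higher in TCM (1.05%) and 38 past 2-fold lower (1.33%). V segments made up most of them. Of 76 V segments considered, 20 were higher and 20 lower, whereas of 2781 other genes 10 were higher and 18 lower. Among these other genes, 94.5% had levels within 1.5-fold between the libraries, and the median log2 ratio of all genes was -0.06. Cd74, the invariant chain of MHC class II and the most abundant of the genes listed here, had a level of 2339 in CM and 2368 in TCM. In T cells, 11 of 3495 genes were past 2-fold higher (0.315%) and 13 lower (0.372%).

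**Figure D2:**
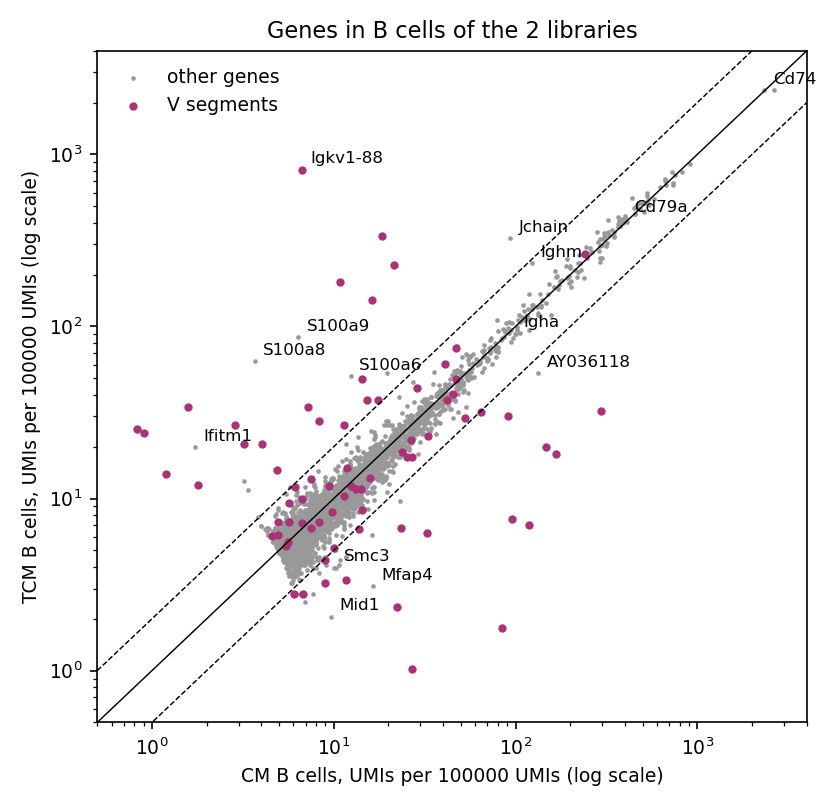
Level of each gene in CM B cells (x axis) and TCM B cells (y axis), in UMIs per 100000 UMIs on log scales, for genes with at least 100 UMIs in all and above 0 in both libraries. The solid line marks equal levels and the dashed lines 2-fold; V segments (purple) scatter widely, of which 20 of 76 are past each line, and most other genes (grey) stay between the lines.

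The V segment counts were traced to single cells. In CM 5 B cells and in TCM 7 held at least 10 UMIs of Jchain, the chain that joins IgA and IgM into multimers and a marker of antibody-secreting cells. This limit was chosen after the values were seen, at a gap. The least in these cells was 40 UMIs in CM and 31 in TCM, and the most in any other B cell was 1 and 5. They were 0.805% of CM B cells (interval 0.262 to 1.87%) and 2.33% of TCM B cells (0.94 to 4.73%), intervals that overlapped. They carried 99.7% of the Jchain UMIs in either library. Of the V segment UMIs they carried 48.5% in CM and 63.8% in TCM, with 6.72% and 10.2% of all B cell UMIs.

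All 5 CM antibody-secreting cells were IgA by their constant region counts. Of the 7 TCM cells, 5 were IgA and 2 were IgM or IgD. The cells were mostly deep. Their median was 20609 UMIs for CM and 9400 for TCM, against 1938 and 1868.5 for the other B cells. The IgM cell with most Jchain UMIs in TCM (1238 UMIs) had 14166 UMIs, of which 57.1% were immunoglobulin, with 722 heavy chain constant UMIs, and it was the one that held Ighv2-6 and Igkv1-88, printed above. That cell held 1 UMI of Cd79a, 2 of Cd79b and 0 of Ms4a1, the least that the rule allowed. In CM the cell with most Jchain UMIs (518) had 26283 UMIs, 18.9% of them immunoglobulin, and its leading segments were Ighv1-22 (405 UMIs) and Igkv6-15 (3642 UMIs).

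The other antibody-secreting cells each had leading segments of their own, with overlaps. Igkv8-19 led the light chain in 1 CM cell (3145 UMIs) and 1 TCM cell (1800 UMIs), paired with Ighv3-8 and Ighv1-33. Ighv2-9 led the heavy chain in 1 CM cell (483 UMIs) and 1 TCM cell (393 UMIs), paired with Igkv3-12 and Igkv6-17. The former of these cells also held 1255 UMIs of a second kappa segment, Igkv9-123, and whether that droplet held more than 1 cell was not tested. In the TCM cell led by Ighv1-33, that segment held 31.9% of the heavy V UMIs, the rest being spread over other segments. None of the 12 cells held a UMI of Pax5, and Ms4a1 ranged from 0 to 5 UMIs, whereas Tnfrsf17, the receptor BCMA of plasma cells, ranged from 0 to 18 UMIs.

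In the remaining B cells, immunoglobulin UMIs were a median of 1.78% of the cell in CM and 1.80% in TCM. The highest was 8.95% in CM and 7.40% in TCM. Of the antibody-secreting cells, 1 TCM cell (3.5%) lay within the range of the others and another (11.3%) close to it. The former held 31 Jchain UMIs, but also 32 of Cd79a, 29 of Cd79b and 5 of Ms4a1. Its counts of the plasma cell genes Xbp1, Sdc1 and Prdm1 were 0, so that its place among antibody-secreting cells is uncertain.

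**Figure D3:**
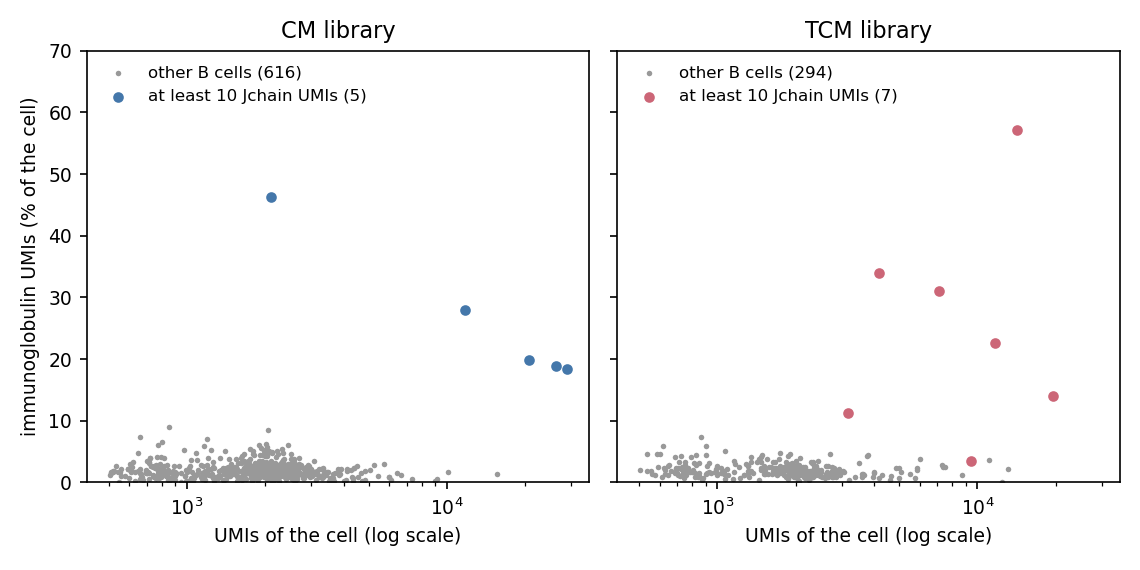
Immunoglobulin UMIs as a percentage of the cell (y axis) against the UMIs of the cell (x axis, log scale), 1 point per B cell, for CM (left) and TCM (right). Coloured points are the 5 CM and 7 TCM cells with at least 10 Jchain UMIs, which reach 46.3% and 57.1%, and grey points are the other 616 and 294 B cells, all at or below 8.95%.

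Without the antibody-secreting cells, 13 of 2669 genes were past 2-fold higher in TCM (0.487%) and 28 lower (1.05%). Of the V segments past 2-fold, 7 of the 20 higher and 10 of the 20 lower stayed past it in the same direction with at least 100 UMIs left. Segments with fewer UMIs left were not counted, whichever way they went. Igkv8-16 was still at 1.61 on 12 CM and 18 TCM UMIs, whereas Igkv9-123 turned from -3.64 to 2.72 on 16 and 52. In 15 of the 20 higher segments a single TCM cell held over 50% of the TCM UMIs, and in 9 of the 20 lower ones a single CM cell did so for CM. Genes past 2-fold in both settings numbered 39, of which 22 were not V segments. Jchain itself had a level of 93.4 in CM and 325.1 in TCM and was in 9 cells of either library. Ighm, the constant region of IgM, was at 122.7 and 233.4, and 722 of its 1588 TCM UMIs were in 1 cell.

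Among the genes higher in TCM B cells, some were spread over many cells and others rested on few. S100a6, a calcium-binding protein gene on chr3:90612882-90624181, had 165 UMIs in 48 CM cells (interval 141 to 192 UMIs) and 350 in 54 TCM cells (314 to 389). Its log2 ratio was 2.05 (interval 1.78 to 2.33). The cell with most held 32 of these UMIs in CM and 52 in TCM. Thinned, 4.93% of CM (3.22 to 7.19%) and 12.1% of TCM B cells (8.21 to 17.0%) held an S100a6 UMI, and in endothelial cells, where the gene was also read, the shares were 16.2% and 13.8%. Free RNA was estimated at 26.8% of the S100a6 UMIs in TCM. In T cells the value was -0.11 and in endothelial cells -0.41. With no exclusion genes in the rule, which adds droplets that also hold markers of other cells, the S100a6 log2 ratio was -0.059, so that the difference depended on that choice.

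Plac8 (chr5:100553725-100572245) is a gene read in several leukocytes and was in the list of marginal zone B cells. It had 263 UMIs in 121 CM cells (232 to 297) and 363 in 72 TCM cells (327 to 402), a log2 ratio of 1.43 (1.20 to 1.67). Of the TCM UMIs, 53 were in 1 cell, and 294 remained without the antibody-secreting cells. Thinned, 12.03% of CM and 18.2% of TCM B cells held a Plac8 UMI, against 4.20% and 4.27% of endothelial cells, with overlapping intervals (9.33 to 15.2% and 13.4 to 23.8%). Leaving out cells with 2 or more UMIs of other classes' markers brought the log2 ratio to 0.59. These were markers of T cells, natural killer cells, monocytes and macrophages, endothelium and fibroblasts.

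Abca1, which encodes an exporter of cholesterol (chr4:53030787-53159895), had 66 UMIs in 53 CM cells and 60 UMIs in 48 TCM cells. That was a level of 4.96 in CM and 8.82 in TCM (log2 ratio 0.83, 0.30 to 1.36), short of 2-fold. No cell held more than 4 of its UMIs. The thinned share was 2.96% in CM (1.67 to 4.83%) and 9.52% in TCM (6.07 to 14.1%), against 1.07% and 1.27% in endothelial cells. The unthinned shares were 8.53% and 15.9%. Cdc25b, a cell cycle phosphatase (log2 ratio 0.79), and Rab30, a small GTPase (0.78), were likewise spread over 63 and 56 CM cells and 44 and 37 TCM cells. Without the antibody-secreting cells, Cdc25b kept 70 of 84 CM and 49 of 74 TCM UMIs, and its log2 ratio was 0.51 (-0.05 to 1.06). The value of Rab30 was -0.020 when cells with 2 or more UMIs of other classes' markers were left out.

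Of the other genes with high ratios, several had much of their count in 1 cell. Ifitm1, an interferon-induced membrane protein, had 23 UMIs in CM and 135 in TCM, of which 107 were in 1 cell. The haemoglobin gene Hbb-bs had 303 and 263 UMIs, of which 291 and 263 were in 1 cell each. Cited2, a transcriptional coregulator, had 141 TCM UMIs with 72 in 1 cell, and its log2 ratio turned from 0.83 to -0.27 without the antibody-secreting cells. Ly6c2, a surface antigen of plasma cells and monocytes, had 77 and 79 UMIs (log2 ratio 1.01, interval 0.53 to 1.48), and its value in endothelial cells was 0.98. Ly6c1 (0.82), an endothelial marker, was estimated to be 43.0% free RNA in TCM, and Smpdl3a (0.80), a phosphodiesterase gene, 17.6%.

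Of the 28 genes other than V segments past 2-fold, 4 had more than 50% of their UMIs accounted for by free RNA, and all 4 were higher in TCM. S100a9 had 85 UMIs in 19 CM cells and 589 in 153 TCM cells. S100a8, the partner with which it forms calprotectin in neutrophils, had 49 UMIs in 14 CM cells and 426 in 149 TCM cells. The share of free RNA in TCM was estimated at 67.6% for S100a9 and 56.5% for S100a8, the latter not far above the 50% limit for an estimate this rough. Hp and Cxcl2 were at 59.0% and 80.4%. Single TCM B cells held 185 UMIs of S100a9 and 170 of S100a8. The 12 neutrophil markers together held 0.374 UMIs per B cell in CM and 3.93 in TCM, with 3 and 1 of them at 0, and T cells held 0.425 and 4.66.

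The genes with the lowest ratios fell into those spread over many B cells and those known from other cells. Mid1, which encodes a microtubule-associated ubiquitin ligase (chrX:169685199-170005736), had 128 UMIs in 107 CM cells (107 to 152) and 14 UMIs in 13 TCM cells (7.65 to 23.5). The log2 ratio was -2.22 (-3.14 to -1.42), and no cell held more than 3 of its UMIs. Thinned, 9.86% of CM (7.41 to 12.8%) and 2.60% of TCM B cells (0.959 to 5.57%) held a Mid1 UMI. Mid1 was also lower in T cells (-1.30, -1.86 to -0.77) and endothelial cells (-1.24, -1.52 to -0.96), and the interval of B cells overlapped both.

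Smc3, a subunit of the cohesin ring that holds sister chromatids together (chr19:53600398-53645833), had 137 UMIs in 113 CM cells (115 to 162) and 27 in 24 TCM cells (17.8 to 39.3). The log2 ratio was -1.37 (-2.03 to -0.77), against -0.12 in T cells and -0.20 in endothelial cells. It was -0.59 when the exclusion genes were not used. The thinned shares were 10.3% (7.76 to 13.2%) and 2.60% (0.959 to 5.57%). Stip1, a co-chaperone that links Hsp70 and Hsp90 (chr19:7020702-7039967), had 133 UMIs in 111 CM cells (111 to 158) and 27 in 26 TCM cells. Its log2 ratio was -1.33 (-1.99 to -0.73), and in T cells -0.37. The difference between cell classes was not tested for either gene.

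Several genes lower in TCM are known from stromal and epithelial cells: Mfap4 (log2 ratio -2.42), Bgn (-1.46), Sparc (-1.39) and Gsn (-1.26), which encode matrix and actin-binding proteins of fibroblasts among others, and Emp2 (-1.35) and Ager (-1.30) of alveolar type I cells. Free RNA was estimated at 30.7 to 45.6% of their CM UMIs. In TCM the estimate exceeded the UMIs read for all 6, for instance 65.2 against 21 for Mfap4 and 115 against 66 for Gsn, so that it was too high there and these shares are uncertain. The 8 fibroblast markers summed to 0.831 UMIs per CM B cell and 0.419 per TCM B cell, with 1 and 2 of them at 0, and the part of such cells in these values was not tested. Thinned, 3.35% of CM and 4.33% of TCM B cells held an Ager UMI, and 4.14% and 4.76% a Bgn UMI. The shares of Mfap4, Sparc, Gsn and Emp2 were lower in TCM, and the intervals overlapped for all 6 genes. Of the 145 Ager UMIs in CM, 36 were in 1 cell. In thinned endothelial cells, Sparc was found in 64.8% for CM and 65.5% for TCM, and Emp2 in 43.4% and 41.6%. Mt1, a metallothionein gene (-1.35), had 155 CM UMIs, 50 of them in 1 cell, and AY036118 (-1.32) had 1779, 365 of them in 1 cell. Bgn, Mt1 and Ager turned to 0.38, 0.71 and 2.46 in settings with other choices of cells, given further below.

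**Figure D4:**
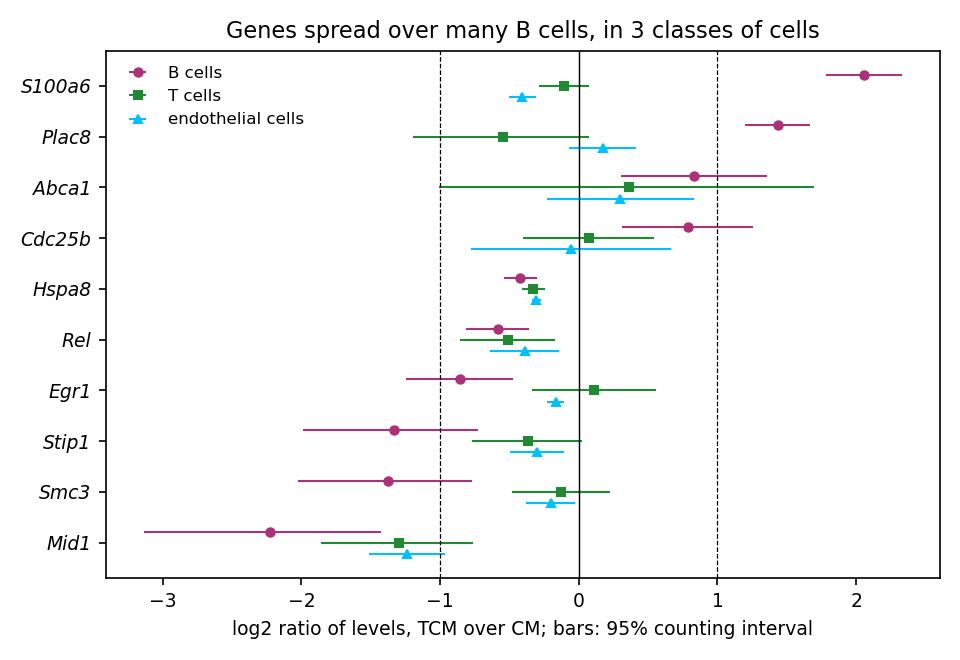
Log2 ratio of levels, TCM over CM (x axis), for 10 genes in B cells (circles), T cells (squares) and endothelial cells (triangles), with 95% counting intervals and dashed lines at 2-fold. S100a6 and Plac8 lie right of the 2-fold line in B cells alone of the 3 classes, Mid1 lies left of it in all 3, and Hspa8 and Rel lie below 0 in all 3.

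The groups of genes that run the B cell program were close between the libraries. None of the 20 genes of the B cell receptor and its co-receptors was past 2-fold, and their median log2 ratio was 0.02, against -0.06 over all genes. They ranged from -0.27 for Cd22, an inhibitory co-receptor, to 0.64 for Fcgr2b, the inhibitory receptor for IgG. The list holds Cd79a (0.065) and Cd79b (-0.006), which also selected the cells, so that their closeness is partly set by the rule. The 20 transcription factors of the lineage had a median of -0.08, with Ebf1 at -0.16, Spi1 (PU.1) highest at 0.26 and Spib lowest at -0.56. Of these factors, 4 of 20 had intervals wholly below 0 and none above, while over all 2857 genes 301 were wholly below 0 and 188 wholly above.

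Antigen presentation was likewise near equal. The median was 0.03 over 10 genes of MHC class II presentation, with H2-Aa at 0.01 and H2-Eb1 at 0.04, and -0.06 over 13 genes of class I presentation, where the peptide transporter genes Tap1 and Tap2 were highest and lowest at 0.32 and -0.68. Of 13 homing receptor genes the median was -0.01. Ccr7, which guides lymphocytes to lymph nodes, was at -0.11, and S1pr4, a receptor for sphingosine-1-phosphate, was highest at 0.74. Survival genes had a median of 0.11 over 10 genes, with the BAFF receptor gene Tnfrsf13c lowest at -0.27 and the kinase gene Pim2 highest at 0.39.

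Among the lists with at least 3 genes considered, the 3 lowest medians were those of the NF-kB pathway, heat-shock chaperones and the cell cycle, none of which held more than 1 gene past 2-fold. In the first of these, which signals in activated B cells, 10 of 11 genes were below 0 with a median of -0.35, and 4 had intervals wholly below 0. Rel, the c-Rel subunit, had 640 UMIs in CM and 218 in TCM (-0.58, -0.81 to -0.36), Nfkbia, the inhibitor, 622 and 251 (-0.34), and Nfkbid was lowest at -0.84. The same list had a median of 0.07 in T cells, over 9 of these genes. Rel was also lower in T cells (-0.51, -0.86 to -0.17) and endothelial cells (-0.39, -0.64 to -0.14). Nfkbia was at 0.14 in T cells and 0.13 in endothelial cells. Heat-shock chaperones had a median of -0.36 over 12 genes, 7 with intervals below 0, and -0.35 in T cells. Hspa8, the constitutive Hsp70, was at -0.42 (-0.54 to -0.30), Hsp90ab1 at -0.25 and the inducible Hspa1a at -0.76. In the cell cycle list all 6 genes considered were below 0, with a median of -0.49 and -0.40 in T cells. Stmn1, a tubulin-binding protein of dividing cells, was past 2-fold (-1.37), and Hmgb2 was at -0.49. Over all 2857 genes, 1692 were below 0. Lower medians were found in smaller lists, at -1.02 over 2 fibroblast marker genes, -0.70 for Fam43a, the only gene considered of the germinal centre list, and -0.68 for Cd9, the only one of the B-1 list, of which free RNA was estimated at 31.9% in CM.

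Immediate early genes had a median of -0.13 over 16 genes, between Egr1 at -0.86 and Myc at 0.37, and genes induced by glucocorticoids -0.25 over 7 genes, 4 with intervals below 0. Cebpd was lowest at -0.86, with free RNA estimated at 52.6% of its CM UMIs. Of 13 type I interferon-stimulated genes the median was -0.09, with Ifitm2 highest at 0.75 and Ifi203 lowest at -0.66, and free RNA was estimated to exceed the UMIs of Ifitm2. Surface genes of activation had a median of -0.12 over 7 genes, with Cd83 at -0.11 and Cd69 at -0.12. Of 5 genes of the Toll-like receptor pathway the median was -0.09, with Irf5 lowest at -0.58.

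It was then asked which kinds of B cells were present. Marker genes of follicular B cells, the recirculating naive cells, were frequent and close in both libraries. Thinned to 1000 UMIs, Fcmr, a receptor for IgM, was found in 54.0% of CM (49.6 to 58.4%) and 58.4% of TCM B cells (51.8 to 64.9%). Fcer2a (CD23) was in 33.3% and 31.6%, and Ighd in 34.1% and 36.8%. The unthinned shares were 69.2% and 73.4% for Fcmr, 46.4% and 45.2% for Fcer2a and 48.0% and 50.8% for Ighd, and endothelial cells were below 0.5% thinned for all 3. Cr2 (CD21), high in marginal zone cells, was in 7.69% and 8.66%, and Vpreb3, kept on from immature cells, in 28.6% and 26.4%. All these intervals overlapped between the libraries. Of 99 genes whose thinned shares were taken, 6 had intervals apart: Herpud1, S100a6, Abca1, Mid1, Smc3 and Stip1. All of them except Herpud1 had been named for their log2 ratios in the same counts, so that their shares are no separate evidence.

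The marginal zone list had a median log2 ratio of 0.04 over 4 genes, among them Mzb1, which aids antibody assembly (-0.20). Without the antibody-secreting cells Mzb1 turned to 0.19, with 508 UMIs in CM and 285 in TCM, and the list median to 0.27. The plasma cell list had a median of -0.07 over 9 genes, of which Jchain and Ly6c2 were past 2-fold. After thinning even Pax5 was in only 16.8% and 13.0% of B cells, so that a low share does not show a subset to be absent. How many of all genes lay under 5% is not given here. In the lists of other subsets, the genes found in under 5% of thinned B cells in both libraries were 8 of 9 for B-1 cells, 8 of 10 for memory and age-associated cells, 10 of 13 for immature cells, 9 of 10 for germinal centre cells and 8 of 13 for plasma cells. Those more frequent included Cd24a of the immature list (24.5% and 24.7%), Ahnak of the memory list (11.2% and 14.7%, against 37.0% and 38.02% of endothelial cells) and Sec11c of the plasma cell list (23.5% and 24.2%). Herpud1, a stress gene of the endoplasmic reticulum and also of the plasma cell list, was in 17.9% of CM (14.7 to 21.6%) and 8.23% of TCM B cells (5.02 to 12.5%), against 13.6% and 16.02% of endothelial cells. The log2 ratio of the Herpud1 levels was -0.29 (-0.61 to 0.02). Cd5, a marker of B-1 cells, was in 0% of CM (up to 0.725%) and 0.866% of TCM B cells, and Tbx21, of age-associated cells, in 0.197% and 0.866%, against 0.305% and 0.229% of CM endothelial cells. Of the genes of early B cell development, Rag1 was in 4 CM cells (0.789%) and 0 TCM cells, and Rag2, Dntt and Igll1 had no UMI in the thinned cells of either library. Mki67, a gene of dividing cells, was in 0.789% and 0%, for which 0 of 231 cells allowed up to 1.58%. Sdc1 (CD138), of plasma cells, was in 2.37% and 2.60%, against 0.534% in CM endothelial cells.

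**Figure D5:**
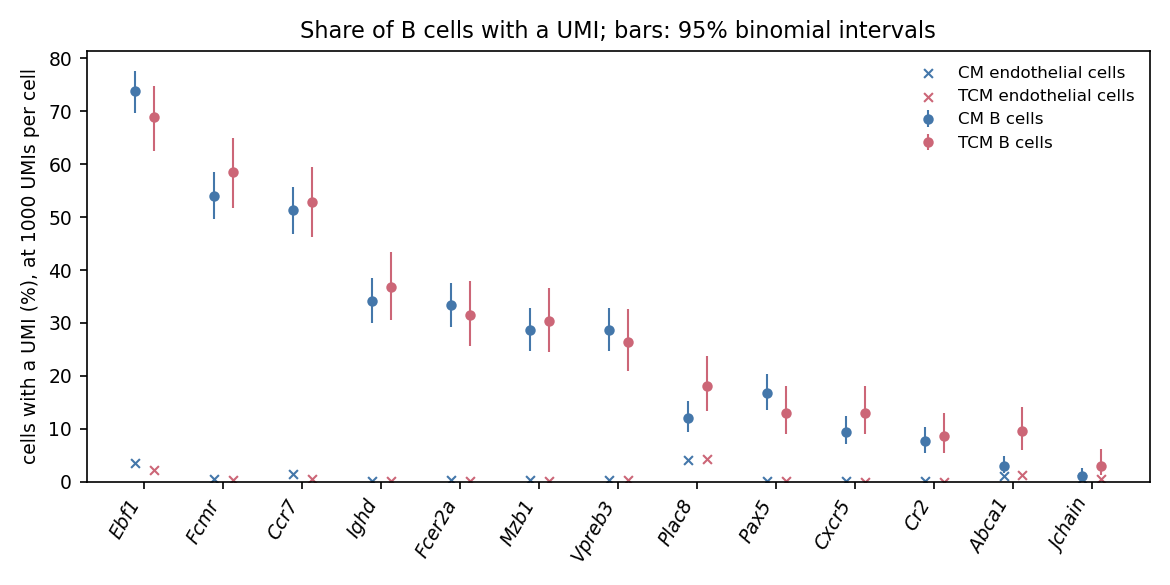
Share of B cells with a UMI (%, y axis) at 1000 UMIs per cell for 13 genes, with 95% exact binomial intervals (circles), and the share in endothelial cells of the same library (crosses). CM and TCM circles lie close for subset markers such as Fcmr (54.0% and 58.4%) and Fcer2a (33.3% and 31.6%). The intervals are apart for Abca1 (2.96% and 9.52%), a gene named for its log2 ratio in the same counts.

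Heavy chain class could be called in cells with at least 3 heavy chain constant UMIs, 354 in CM and 180 in TCM. IgM or IgD led in 98.0% of these in CM (347 cells) and 96.7% in TCM (174 cells), IgA in 6 and 5 cells, IgG in 1 and 1, and IgE in none. Without the antibody-secreting cells IgM or IgD was at 99.4% in both libraries. By V segment UMIs, 91.0% of CM and 90.8% of TCM B cells with a call used kappa light chains, 5.98% and 5.65% lambda, and 2.99% and 3.53% were mixed.

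By constant region UMIs the light chains gave another picture. Kappa was called in 9.72% of CM and 12.3% of TCM cells, lambda in 30.6% and 24.2%, and the remaining 59.7% and 63.5% were mixed. The lambda constant gene Iglc2 was read in the cells whose V segments were kappa at a share of 65.9% for CM and 66.0% for TCM, with a mean of 2.70 and 2.27 UMIs per cell, while free RNA was expected to give 0.00905 and 0.0105. The cause was not tested, and the constant region calls were not used further.

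V segment use was broad. A heavy V segment could be called in 411 CM and 212 TCM cells, which used 75 and 66 segments, and a light V segment in 578 and 286 cells, which used 79 and 71. The most used heavy segment was Ighv2-2 in CM (22 cells, 5.35%) and Ighv3-2 in TCM (17 cells, 8.02%). Ighv3-2 was in 4.38% of CM cells (2.62 to 6.83%) and Ighv2-2 in 2.36% of TCM cells (0.770 to 5.42%), so that the intervals overlapped for both. The most used light segment was Iglv1 in CM (33 cells) and Igkv1-110 in TCM (14 cells). Igkv1-135 was in 32 CM cells (5.54%, 3.82 to 7.73%) and 6 TCM cells (2.10%, 0.774 to 4.51%).

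Of the cells with both chains called, 395 in CM held 352 pairs of segments and 201 in TCM held 190. Cells that shared their pair with another cell of the library were 77 in CM (19.5%) and 22 in TCM (10.9%). This share grows with the number of cells. Counted over all pairs of cells in a library, 55 of 77815 in CM (0.0707%) and 11 of 20100 in TCM (0.0547%) used the same segments. No pair of segments was held by more than 4 cells in CM or 2 in TCM, and the joining sequences that would show a clone are not in gene counts.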

How the data were processed

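The authors made 5′ droplet libraries (10x Genomics) of whole lung, sequenced them on a NovaSeq 6000 and used Cell Ranger for mapping to mm10 (GRCm38). The deposited matrices hold raw UMI counts for 32286 features and 737280 barcodes per library, not normalized, and their header names Cell Ranger version 4. Groups were taken from the treatment labels. CM held 31944151 UMIs and TCM 36648719.

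Cells, B cells, T cells and endothelial cells were selected by the rules stated above. No cell annotation was used and no doublet caller was run. The exclusion genes removed droplets of mixed markers, and 2 further filters served as alternatives. Levels were sums of UMIs over cells per 100000 UMIs. Intervals were exact Poisson for sums, Clopper-Pearson for shares and conditional binomial for ratios. Ratios used 3 counts in place of a sum of 0 and are bounds in that case. Genes with sums of 3 or fewer in both libraries got none. The free RNA profile came from droplets of at most 50 UMIs and its amount from 7 erythroid and club cell genes, Hbb-bs among them. A light class needed 3 UMIs with 80% of them from 1 class, and a V call 2 UMIs and a single highest segment. Cells were thinned at random to 1000 UMIs.

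Genes were named as the 12 highest and 12 lowest by log2 ratio, without the selecting genes, immunoglobulin, mitochondrial, ribosomal, Gm and Rik genes and those with over 50% free RNA, and in each list as the 3 with most UMIs and the extremes. Genes left out for free RNA numbered 32. A few genes of the lists are not reported here. The members and lists were chosen with earlier results of these data known. Alternatives concerned the rule, depth, mitochondrial limit, free RNA, weighting, thinning, scaling total, doublets and the filter on low sums. Leaving out antibody-secreting cells, leaving neutrophil-rich cells out of the total (at least 20 UMIs of the 3 genes) and taking genes from 1 UMI were added after the data had been seen. Ratios and intervals were tested on simulated Poisson sums only, so that the clumping of UMIs in single cells was not covered. Python 3.11.15, numpy 2.4.6 and scipy 1.17.1 were used. Coordinates and sequences are from GENCODE vM21.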

Additional observations from a re-analysis of the deposited data

How the results depend on the processing

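Each group held 1 library, so that no replicate could be left out. The B cell share was lower in TCM under every alternative, with a log2 ratio of -1.20 at 1000 UMIs per cell, -1.44 among Ptprc-positive cells and -0.74 without neutrophil-rich cells in the total. Genes past 2-fold, 30 higher and 38 lower as reported, numbered 63 and 92 with no exclusion genes, 19 and 24 without the cells deepest in UMIs (over the 95th percentile), 16 and 20 without cells holding 2 UMIs of other classes' markers, and 56 and 85 after thinning. They were 13 higher without the antibody-secreting cells and 97 lower with free RNA subtracted. With genes from 30 UMIs they numbered 104 and 246, and with all genes from 1 UMI 472 and 1145, most of them resting on few UMIs. The cause was not tested for the other settings.

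List medians stayed between the median lower and the median upper interval bound of their genes in 277 of 299 values. Without the deepest cells, the cell cycle median was -0.14 and that of marginal zone genes 0.40. The latter was 0.51 with no exclusion genes and 0.36 as a mean over cells, where MHC class II was at 0.16. Immunoglobulin constant genes were at -0.11 without cells holding other classes' markers. Lipid and surfactant genes ranged widely, at -0.86 with no exclusion genes, 0.36 without cells holding other classes' markers, -1.94 with free RNA subtracted, 0.11 as a mean over cells and 0.18 thinned. Of the genes named for their high or low ratio, 214 of 287 values stayed within the gene's interval, 64 moved outside it and 9 turned in direction. With free RNA subtracted 11 moved and 13 stayed, and the same numbers held after thinning. Without cells holding other classes' markers 12 moved, 5 turned and 6 stayed. Those that turned with no exclusion genes were S100a6 (-0.059) and Mt1 (0.34). Cited2 turned without the deepest cells (-0.092) and without the antibody-secreting cells (-0.27). Without cells holding other classes' markers Cited2 (-0.015), Rab30 (-0.020), Bgn (0.38), Mt1 (0.71) and Ager (2.46) turned. That filter kept 334 of 621 CM and 97 of 301 TCM cells and did not use the lists of epithelial and neutrophil markers.

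IgM or IgD was at 99.4% in either library without the antibody-secreting cells. The share of cells with a shared V pair was 23.8% in CM with no exclusion genes, 6.06% in TCM at 1000 UMIs per cell, and 13.5% and 3.88% with 5 UMIs for a call. Without thinning, shares of cells with a UMI lay outside the thinned interval in 119 of 206 values. With 14 TCM UMIs of Mid1 and 27 of Smc3, depth limits what can be said of single genes.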

Other observations

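The shares of the heavy V families had overlapping intervals in both libraries. Ighv1, the largest family of mouse heavy V segments, was called in 31.6% of CM B cells (27.2 to 36.4%) and 34.4% of TCM B cells (28.1 to 41.2%) with a call. Ighv8 was at 3.89% in CM (2.24 to 6.25%) and 7.08% in TCM (4.01 to 11.4%), and Ighv10 at 2.68% (1.34 to 4.74%) and 0.943% (0.114 to 3.37%). CD90.1, a surface marker sequence added to the reference, had 2 UMIs in the whole CM library and 1 in the TCM library, and none in a B cell.

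Genes of lipid and surfactant metabolism had a median log2 ratio of -0.15 over 4 genes in B cells. Sftpc, a surfactant protein gene of alveolar type II cells, had 2613 UMIs in CM and 1210 in TCM B cells, of which free RNA was estimated at 64.4% in CM. Acly and Scd1, which act in fatty acid synthesis, were at 0.30 and -0.15.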
